A study of Mus musculus with 10 samples.

Results

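The 32 genes described here encode the glucose and lactate transporters, the enzymes of glycolysis, the PFKFB and PDK enzyme families that regulate the pathway, and the regulators Hif1a and Tigar. They are a list of names whose rule uses no measured value, although it was drawn up with earlier results of these data known. Of the 32, 28 had a probe set on the array for which the gene was the only gene symbol, as did 19938 genes in all. Where a gene had several such probe sets, the one with the highest mean over all 10 arrays stands for it. The table holds 35556 probe sets, of which 23410 had at least 1 gene symbol and were tested. No one-gene probe set was listed for Gpi1, Eno1, Pfkfb1 and Gapdh in the annotation used here, so these 4 genes are without a value of their own. Gapdh, a glycolytic dehydrogenase, shared 25 probe sets with Gapdh-like loci, whose differences lay between 0.09 and 0.14 on the log2 scale, and 0 of them passed the test.

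Transcripts were measured in haematopoietic stem cells of mouse bone marrow, the cells from which all blood lineages arise. The tested animals were Sox17-transgenic mice double transgenic for (tetO)7CMVSox17-IRES-NucEGFP, a tetracycline-controlled Sox17 gene with a nuclear EGFP reporter, and for the transactivator rtTA*M2 in the Gt(ROSA)26Sor locus. They were compared with wild-type littermates, for which the labels name no allele. All mice were 8 weeks old and drank doxycycline at 2 mg/ml for 5 days, so both groups carry the effect of the drug itself. Each group has 5 arrays, each from an aliquot of 10000 double-sorted CD150+CD48-Lineage-Sca1+cKit+ cells. The labels call the aliquots independent but do not tie each to 1 animal, and p-values therefore reflect only how far aliquots differ. The Gt(ROSA)26Sor locus is active in most tissues, so induction was not limited to stem cells by this construct.

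Of the 23410 probe sets, 33 passed limma's test at an adjusted p of 0.05, which is 0.141%, with 28 higher (0.120%) and 5 lower (0.0214%) in transgenic cells. The count depends on single arrays: it was 15 without transgenic array 4 and 71 without transgenic array 2, the lowest and highest with 1 array left out, and 91 (0.389%) with the set of arrays described next as a block. The array's Sox17 probe set, near the low end of the signal range, averaged 4.37 ± 0.13 in transgenic and 4.21 ± 0.13 in wild-type cells (log2, SD, n = 5 each; adjusted p = 0.855, limma), so it does not check the labels. Transgenic array 4 alone had the sex-linked transcript pattern of a male. After each group's mean was taken off, the leading principal component held 40.1% of the remaining variance and parted the arrays into a set A (transgenic 1, 2 and 3, wild-type 1 and 2) and a set B (transgenic 4 and 5, wild-type 3, 4 and 5). The labels name no batch behind these sets. As means over markers, the stem cell list (9 of 10 genes measured) spanned 8.21 to 8.38 over the transgenic arrays and 7.89 to 8.24 over the wild-type arrays on the log2 scale. Of its differences, 5 were positive and 4 negative, and 0 genes passed the test. Unadjusted p was under 0.05 for 5 (55.6%, against 6.59% of all probe sets): Vwf (1.28), Procr (1.08), Mecom (0.33), Fgd5 (0.27) and Kit (-0.47).

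Glycolysis turns glucose into pyruvate in the cytosol with a small yield of ATP. Its pace is set largely at phosphofructokinase, whose strongest activator, a fructose bisphosphate made only for signalling, is produced and removed by the bifunctional PFKFB enzymes. The PDK kinases act at the exit of the pathway: they phosphorylate and inhibit the pyruvate dehydrogenase complex, which keeps pyruvate out of the mitochondria. Mouse haematopoietic stem cells in the bone marrow are known for a reliance on glycolysis, in which Hif1a and the PDK kinases have been given a part.

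Among the 28 measured genes, Pfkfb3 alone passed the test, and it was higher in transgenic cells. The glycolytic enzymes had means close to the wild-type level: the 15 measured ones had fold differences between 0.881 and 1.14, 5 above and 10 below 1. The glucose transporters Slc2a1 and Slc2a3 and the kinase Pdk4 had higher means in transgenic cells at an unadjusted p under 0.05, but did not pass after adjustment. Over all 28, 13 differences were positive and 15 negative, with a median of -0.03, beside a median of -0.01 and 46.3% positive over all tested probe sets. One of the 28 was called, against 0.141% of all probe sets (0 to 1 of the 28 and 15 to 71 of all with 1 array left out), and 4 of the 28 (14.3%) had an unadjusted p under 0.05, against 6.59% of all. Pfkfb3 had been named in the earlier results known when the list was drawn up, so its call says nothing about the list. In bulk samples such as these, fewer cells of a type and less RNA per cell cannot be told apart.

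**Figure D1:**
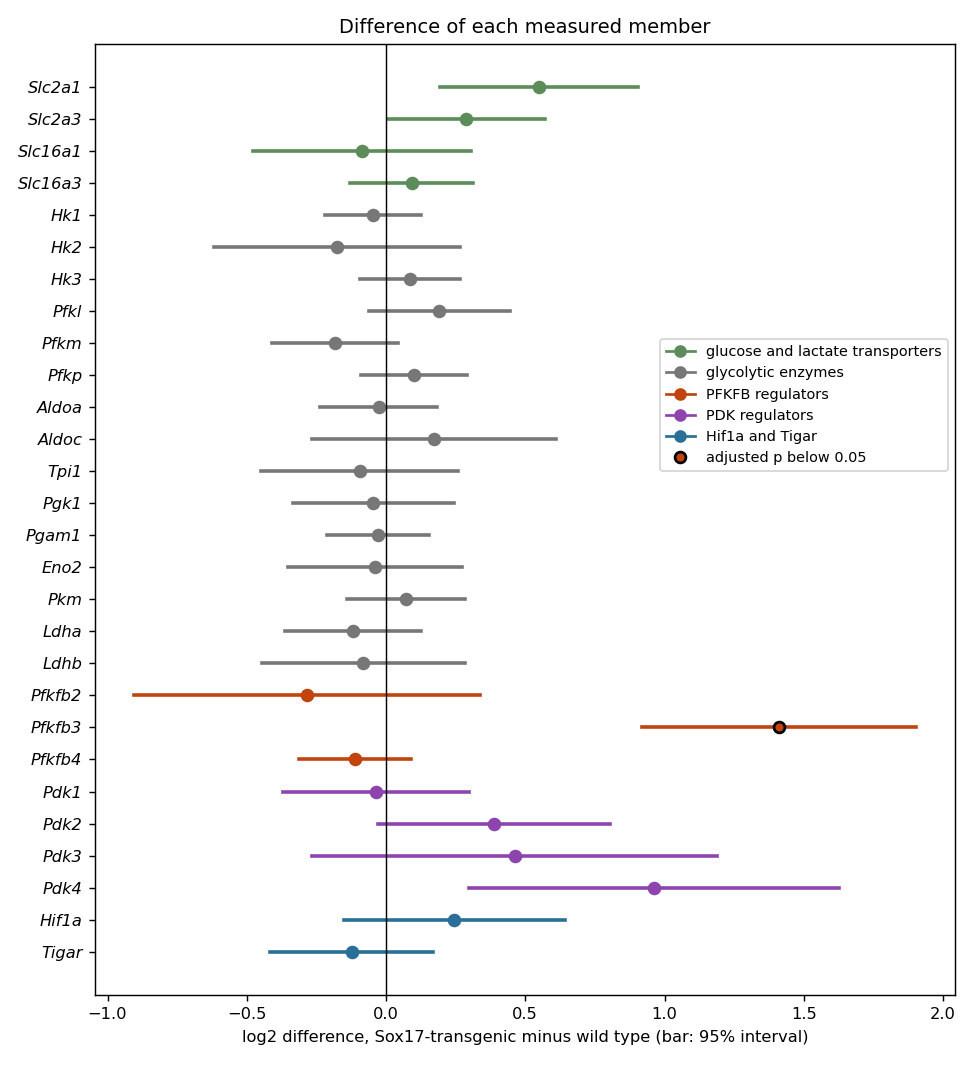
Difference of each measured gene between Sox17-transgenic and wild-type stem cells, as transgenic minus wild type on the log2 scale (x axis), with its 95% interval from limma (bars, n = 5 arrays per group) and colours for the gene groups. Pfkfb3, at 1.41, is the only gene with an adjusted p under 0.05, and the 15 enzymes lie between -0.18 and 0.19.

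Pfkfb3 encodes the PFKFB isoform with the highest kinase activity relative to its phosphatase activity. It had log2 values of 7.89, 8.04, 8.81, 9.11 and 8.68 on transgenic arrays 1 to 5, against 6.95, 7.13, 6.79, 7.21 and 7.37 on wild-type arrays 1 to 5. All 5 transgenic arrays lay above all 5 wild-type arrays, a separation that 1.47% of all tested probe sets had in either direction and 0.876% had in this one. The means were 8.50 ± 0.52 in transgenic and 7.09 ± 0.22 in wild-type cells (SD, n = 5 each), a difference of 1.41 with a standard error of 0.22 and a 95% interval of 0.92 to 1.90. This is a 2.66-fold higher level in transgenic cells (adjusted p = 0.0429, limma with Benjamini-Hochberg adjustment over 23410 probe sets).

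The difference kept its direction within both sets of arrays, at 1.20 for set A and 1.77 for set B. The call sits close to the threshold: it was lost without transgenic array 3, 4 or 5 and without any 1 wild-type array (adjusted p between 0.0761 and 0.119, limma), and held without transgenic array 1 or 2. The difference itself ran from 1.26 to 1.57 when 1 array was left out. Marker lists of other cells differed between the groups as well. As means over a list, the endothelial markers (10 of 10 measured, 7 differences positive and 3 negative) spanned 6.43 to 6.86 over transgenic and 5.97 to 6.36 over wild-type arrays. The platelet and megakaryocyte markers (7 of 10 measured, 1 positive and 6 negative) spanned 6.09 to 6.31 over transgenic and 6.65 to 7.19 over wild-type arrays. The granulocyte and monocyte markers (11 of 12 measured, 11 positive) spanned 5.58 to 6.87 over transgenic and 5.34 to 5.62 over wild-type arrays, with the highest means, 6.09 and 6.87, on transgenic arrays 4 and 5. Unadjusted p (limma) was under 0.05 for 5 endothelial (50%), 6 platelet (85.7%) and 1 of the granulocyte and monocyte genes (9.09%), against 6.59% of all probe sets. In each of the first 2 lists 1 gene passed the test, against 0.141% of all probe sets. The endothelial gene Egfl7 rose by 1.21 (adjusted p = 0.0260) and the platelet gene Pf4 fell by 2.53 on the log2 scale (adjusted p = 0.0112), both by limma. Other members lay the opposite way, among them Itgb3 at 0.60 in the platelet list and Sox18 at -0.25 in the endothelial list. Whether such cells were in the aliquots, and any part of them in the Pfkfb3 result, was not tested.

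The other measured PFKFB genes did not pass the test. Pfkfb2, the isoform best known from heart, had 7.51, 7.72, 7.68, 8.39 and 8.35 on the transgenic arrays, against 7.81, 7.65, 9.01, 7.90 and 8.70 on the wild-type arrays. The groups overlapped throughout, and the difference was -0.28 with a standard error of 0.28 (adjusted p = 0.948, limma). Its values went instead with the array sets, being higher in set B than in set A by 0.77 with the group in the model. Pfkfb4, a further isoform, had 4.34, 4.44, 4.16, 4.33 and 4.46 on the transgenic arrays, against 4.51, 4.56, 4.23, 4.41 and 4.58 on the wild-type arrays. These values lie at the 25.0th percentile of the tested probe sets, where a difference can be compressed, and the difference was -0.11 with a standard error of 0.09 (adjusted p = 0.931, limma).

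**Figure D2:**
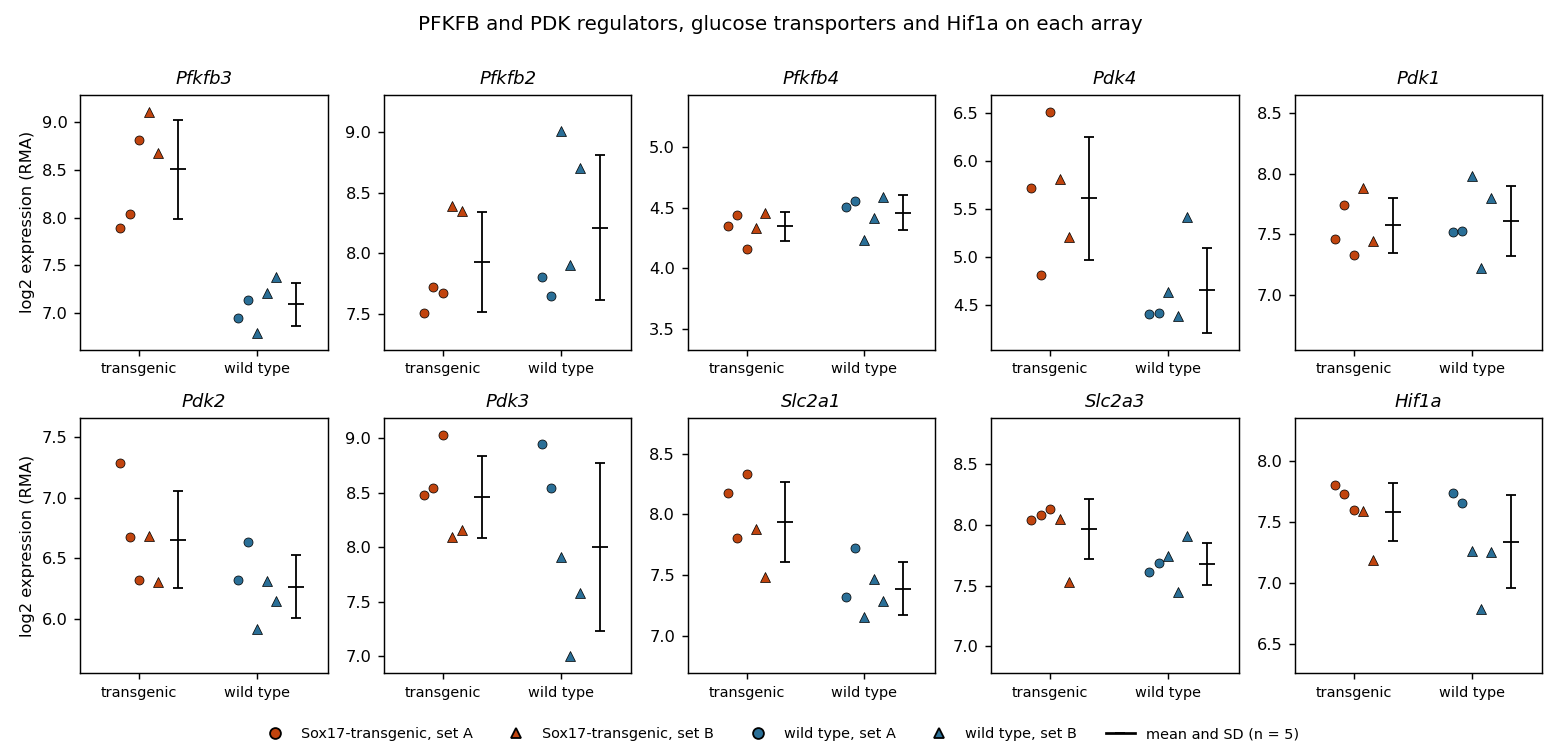
Log2 expression (y axes, each spanning at least 2 log2 units) of the PFKFB and PDK genes, the glucose transporters Slc2a1 and Slc2a3, and Hif1a on each array, Sox17-transgenic arrays left and wild-type arrays right, circles for set A and triangles for set B, with the mean and SD (n = 5 each). The transgenic and wild-type points are apart for Pfkfb3, with the lowest transgenic array at 7.89 and the highest wild-type array at 7.37, and overlap for the others.

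The promoter windows shown are those of the 2 Pfkfb3 starts, Slc2a1 and Pdk4, genes with an unadjusted p under 0.05 (limma). Slc2a3 also had such a p, but no window was listed for it. The first Ldha window is shown as the one with the most matches of the motif described next. ACGTG is a form of the core of the element that hypoxia-inducible factors bind. Each window runs from 250 bases before to 50 after a RefSeq start (build GRCm38.p6), 5′ to 3′ on the gene's strand, with ACGTG or its reverse complement CACGT in capitals. Overlapping matches run together, so that the palindrome CACGTG counts as a match on each strand.
Pfkfb3, first window, chr2:11502041-11502340, minus strand: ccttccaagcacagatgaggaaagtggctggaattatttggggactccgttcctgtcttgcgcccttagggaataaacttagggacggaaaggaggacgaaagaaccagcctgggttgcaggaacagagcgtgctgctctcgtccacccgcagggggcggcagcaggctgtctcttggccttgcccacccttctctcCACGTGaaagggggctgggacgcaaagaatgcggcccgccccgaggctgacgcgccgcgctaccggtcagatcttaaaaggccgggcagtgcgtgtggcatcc
Pfkfb3, second window, chr2:11553880-11554179, minus strand: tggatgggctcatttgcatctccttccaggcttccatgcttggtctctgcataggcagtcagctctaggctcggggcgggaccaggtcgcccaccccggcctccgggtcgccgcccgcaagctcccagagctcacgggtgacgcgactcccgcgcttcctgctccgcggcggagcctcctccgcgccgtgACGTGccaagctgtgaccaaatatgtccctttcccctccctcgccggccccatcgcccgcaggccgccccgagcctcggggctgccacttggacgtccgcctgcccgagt
Slc2a1, chr4:119108495-119108794, plus strand: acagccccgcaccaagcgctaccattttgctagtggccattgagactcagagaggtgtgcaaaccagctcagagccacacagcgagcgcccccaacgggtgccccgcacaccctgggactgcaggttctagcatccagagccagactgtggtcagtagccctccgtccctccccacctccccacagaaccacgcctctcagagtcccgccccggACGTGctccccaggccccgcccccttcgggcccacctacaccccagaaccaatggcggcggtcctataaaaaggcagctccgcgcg
Ldha, first window, chr7:46845554-46845853, plus strand: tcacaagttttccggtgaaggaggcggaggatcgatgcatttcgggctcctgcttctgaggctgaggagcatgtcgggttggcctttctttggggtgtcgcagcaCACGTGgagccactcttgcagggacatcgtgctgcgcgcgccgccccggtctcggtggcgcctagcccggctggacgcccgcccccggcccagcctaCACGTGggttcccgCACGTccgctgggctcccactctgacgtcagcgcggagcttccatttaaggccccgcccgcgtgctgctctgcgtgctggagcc
Pdk4, chr6:5496229-5496528, minus strand: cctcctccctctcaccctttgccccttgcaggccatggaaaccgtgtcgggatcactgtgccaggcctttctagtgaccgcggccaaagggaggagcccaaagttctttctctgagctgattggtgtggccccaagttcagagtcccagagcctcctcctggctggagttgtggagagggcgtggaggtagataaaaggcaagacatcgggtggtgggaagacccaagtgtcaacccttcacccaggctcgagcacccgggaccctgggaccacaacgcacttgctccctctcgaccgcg
The first Pfkfb3 window holds the motif as CACGTG with its first base at -53 from the start, and the second holds 1 match at -60. Slc2a1 has 1 match at -36. Ldha has 5 matches, the most of any window of these genes, and Pdk4 has 0 matches of ACGTG. Other forms of the core, such as GCGTG, were not counted. GCGTG or its reverse complement CACGC occurs in the Pdk4 window, and in the Slc2a1, Ldha and first Pfkfb3 windows shown.

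A window was listed for 31 of the 32 genes, 50 windows in all. ACGTG was found on either strand in 23 of the 50 windows (46%), against 19.6% of all 32851 windows in the table, and in 19 of the 31 genes (61.3%), against 21.8% of all genes. The windows of these genes were also richer in G and C, with a median of 60.5% against 52.7% over all windows, and the part of base composition in the ACGTG share was not tested. CACGTG was in 7 of the 50 windows (14%, against 7.15% of all), and every CACGTG also counts for ACGTG. The GC box GGGCGG was in 25 windows (50%, against 35.7%). ACAAT, a core shared by sites of SOX proteins, was in 11 windows (22%, against 31.0%). Of the measured enzymes, Hk1, Hk2, Hk3, Pfkm, Aldoa, Aldoc, Pgk1, Pgam1, Pkm and Ldha hold ACGTG in a window, as do both Pfkfb3 windows. Any link between the motif and the differences was not tested.

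The PDK family was measured in full, and 0 of its 4 genes passed limma's test. Unadjusted p was under 0.05 for 1 of them (25%, against 6.59% of all probe sets). Pdk4, the isoform known to be raised by fasting in muscle and liver, had 5.72, 4.82, 6.51, 5.81 and 5.21 on the transgenic arrays, against 4.40, 4.42, 4.64, 4.39 and 5.42 on the wild-type arrays. Transgenic arrays 1, 3 and 4 lay above all wild-type arrays, and wild-type array 5 lay above transgenic arrays 2 and 5. The means were 5.61 ± 0.64 in transgenic and 4.65 ± 0.44 in wild-type cells (SD, n = 5 each), a difference of 0.96 with a 95% interval of 0.30 to 1.63 (adjusted p = 0.426, limma). The 3 transgenic and 2 wild-type arrays of set A gave a difference of 1.27, and those of set B gave 0.69.

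Pdk2, the most widely expressed isoform, had 7.29, 6.68, 6.33, 6.68 and 6.30 on the transgenic arrays, against 6.32, 6.63, 5.92, 6.31 and 6.15 on the wild-type arrays. The groups overlapped, and the difference was 0.39 with a 95% interval of -0.03 to 0.80 (adjusted p = 0.792, limma). Pdk3 had 8.48, 8.55, 9.03, 8.09 and 8.16 on the transgenic arrays, against 8.95, 8.55, 7.91, 7.00 and 7.59 on the wild-type arrays. Its values followed the array sets more than the genotype: they were lower in set B by 0.91, and the difference between genotypes came to -0.06 on the set A arrays and 0.62 on those of set B. Over all arrays the Pdk3 difference was 0.46 with a standard error of 0.33 (adjusted p = 0.916, limma). Pdk1, a known target of hypoxia-inducible factors, had 7.46, 7.74, 7.33, 7.88 and 7.45 on the transgenic arrays, against 7.52, 7.53, 7.98, 7.22 and 7.80 on the wild-type arrays. Its groups overlapped fully, with a difference of -0.04 and a standard error of 0.15 (adjusted p = 0.994, limma). Of the other 27 measured genes, only Pdk3 and Pdk4 had 95% intervals that reached above the lower bound of Pfkfb3. No test between genes was made.

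Slc2a1 and Slc2a3 encode GLUT transporters that carry glucose into the cell. Slc2a1 had 8.18, 7.81, 8.33, 7.88 and 7.48 on the transgenic arrays, against 7.32, 7.72, 7.15, 7.47 and 7.28 on the wild-type arrays. Transgenic arrays 1 to 4 lay above every wild-type array, and transgenic array 5 lay below wild-type array 2. The difference was 0.55 with a 95% interval of 0.19 to 0.90, a 1.46-fold higher mean (adjusted p = 0.383, limma), with 0.59 within set A and 0.38 within set B. Slc2a3 had 8.04, 8.08, 8.13, 8.05 and 7.53 on the transgenic arrays, against 7.61, 7.68, 7.74, 7.44 and 7.91 on the wild-type arrays. Transgenic array 5 stood apart from the other 4 of its group, and the difference was 0.29 with a standard error of 0.13 (adjusted p = 0.744, limma), with 0.44 within set A and 0.09 within set B. Of the lactate transporters, Slc16a1 was at -0.09 with a standard error of 0.18 (adjusted p = 0.986) and Slc16a3 at 0.09 with a standard error of 0.10 (adjusted p = 0.953, both limma).

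None of the 15 measured glycolytic enzymes passed the test or had an unadjusted p under 0.05, and the smallest adjusted p among them was 0.857 (limma). Their median difference was -0.04, and their mean over the list spanned 7.75 to 7.87 over the transgenic arrays and 7.77 to 7.92 over the wild-type arrays. For 13 of the 15 the 95% interval lay within 1.5-fold in either direction. The exceptions were Hk2, with an interval of -0.62 to 0.27, and Aldoc, with an interval of -0.27 to 0.61. All 15 intervals ended below 0.92, the lower bound for Pfkfb3, and smaller differences lie within them.

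Hexokinases trap glucose in the cell as its phosphate. Hk1 had a mean of 11.47 ± 0.07 in transgenic and 11.52 ± 0.12 in wild-type cells on its brightest probe set. A further Hk1 probe set was far dimmer, at 7.65 in transgenic and 7.48 in wild-type cells (difference 0.16, standard error 0.25). Which probe set reads the Hk1 level better was not tested. Hk2 had a mean of 6.10 ± 0.34 in transgenic and 6.27 ± 0.38 in wild-type cells, and Hk3 differed by 0.09 (standard error 0.08). The phosphofructokinase subunits, on which the PFKFB product acts, had the largest differences of the enzymes in either direction, and neither was beyond the spread of the arrays. Pfkl averaged 6.36 ± 0.06 in transgenic and 6.17 ± 0.25 in wild-type cells (SD, n = 5 each), a difference of 0.19 (adjusted p = 0.888, limma). Pfkm averaged 7.12 ± 0.20 in transgenic and 7.30 ± 0.11 in wild-type cells, a difference of -0.18 (adjusted p = 0.857, limma). Pfkp, the platelet-type subunit, differed by 0.10 with a standard error of 0.09.

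Aldolase splits the fructose bisphosphate of the pathway into 3-carbon sugars. Aldoa averaged 9.05 ± 0.14 in transgenic and 9.07 ± 0.14 in wild-type cells, and Aldoc differed by 0.17 with a standard error of 0.20. Tpi1, which interconverts the triose phosphates, differed by -0.10 with a standard error of 0.16. In the later steps, which yield ATP, the kinase Pgk1 averaged 9.96 ± 0.28 in transgenic and 10.01 ± 0.14 in wild-type cells, and the mutase Pgam1 differed by -0.03 (standard error 0.08). The enolase Eno2 differed by -0.04 (standard error 0.14), and pyruvate kinase, Pkm, averaged 9.16 ± 0.11 in transgenic and 9.09 ± 0.17 in wild-type cells. Lactate dehydrogenase turns pyruvate into lactate: Ldha averaged 8.48 ± 0.17 in transgenic and 8.60 ± 0.18 in wild-type cells, and Ldhb differed by -0.08 with a standard error of 0.17. Hk1, Pgk1, Pgam1, Pkm and Ldhb have further one-gene probe sets, 0 of which passed the test. The further Ldhb probe set averaged 5.90 in transgenic and 6.04 in wild-type cells, dimmer than the one used, at 8.00 and 8.08. Pgk1 and Pgam1 have near-identical copies in the mouse genome, so probes may read more than 1 of them.

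**Figure D3:**
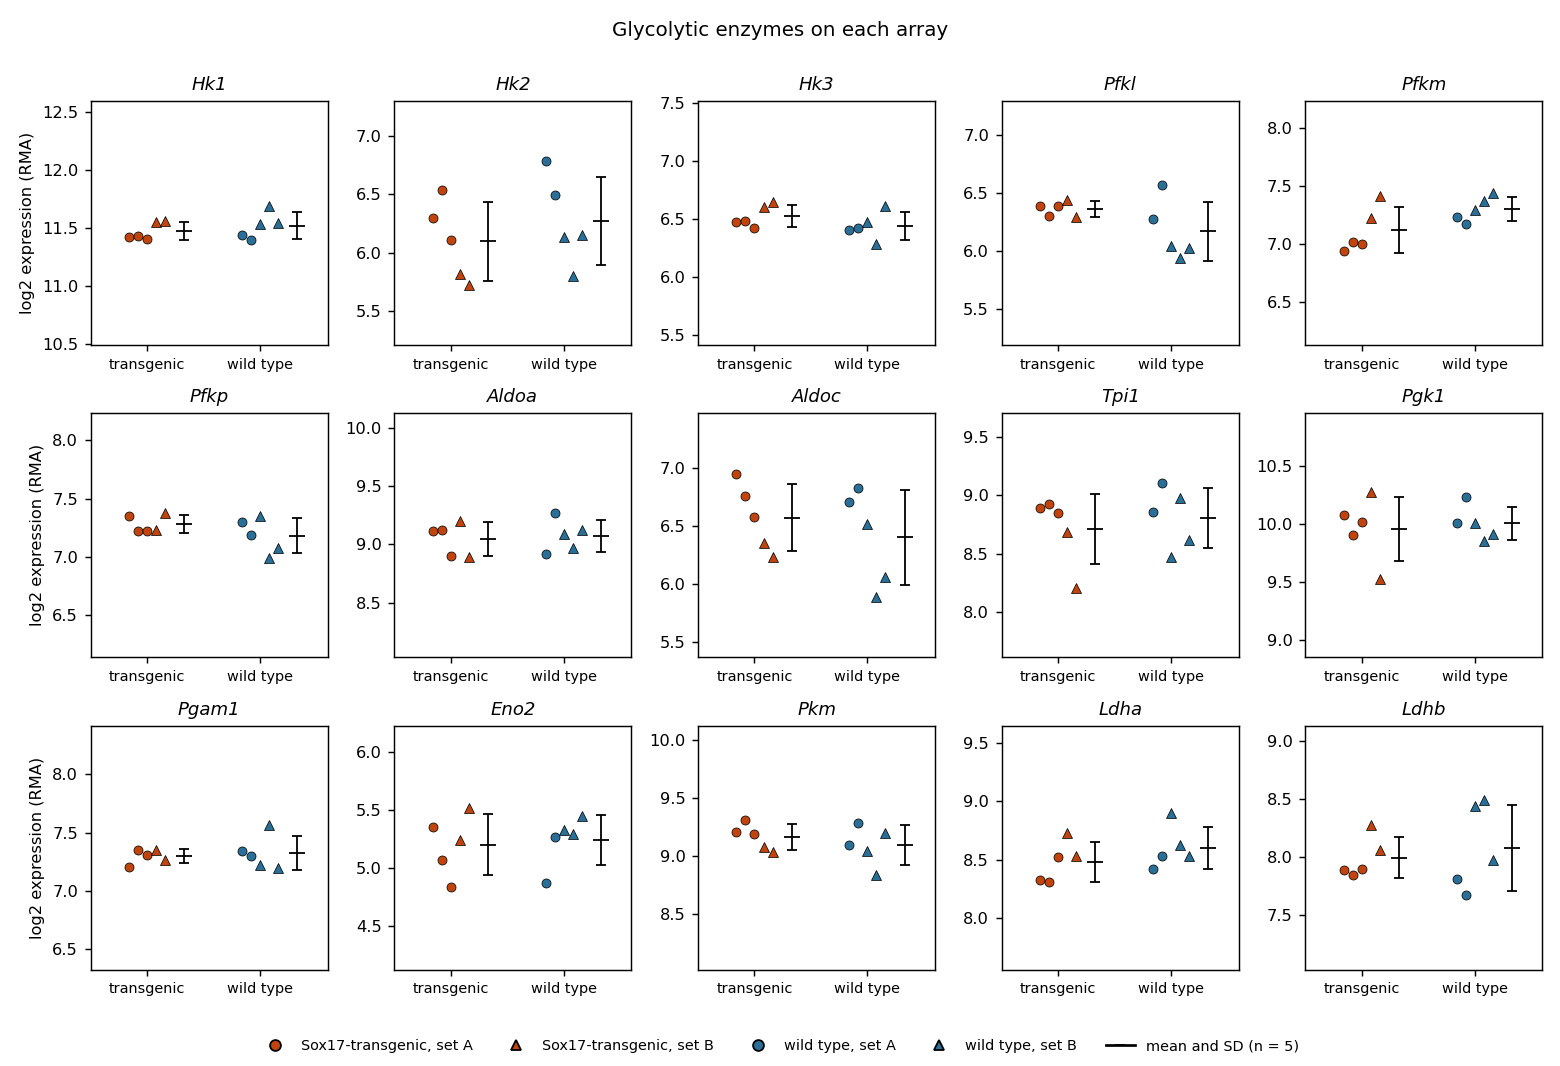
Log2 expression (y axes, each spanning at least 2 log2 units) of the measured glycolytic enzymes on each array, Sox17-transgenic arrays left and wild-type arrays right, circles for set A and triangles for set B, with the mean and SD (n = 5 each). The transgenic and wild-type points overlap in every panel.

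Hif1a encodes the oxygen-regulated subunit of hypoxia-inducible factor 1, which acts largely through the stability of its protein, a quantity these arrays do not measure. Its transcript had 7.81, 7.73, 7.60, 7.59 and 7.19 on the transgenic arrays, against 7.74, 7.66, 7.26, 6.79 and 7.25 on the wild-type arrays. The groups overlapped, with a difference of 0.25 and a standard error of 0.18 (adjusted p = 0.921, limma), and the level was lower in set B than in set A by 0.46. Tigar, a phosphatase that lowers the same sugar bisphosphate that PFKFB enzymes make, differed by -0.12 with a standard error of 0.13 (adjusted p = 0.952, limma).

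Several of the genes varied more between the array sets than between the genotypes. With the group in the model, set B was below set A by 0.91 for Pdk3, by 0.58 for Hk2 and by 0.54 for Aldoc, and above it by 0.77 for Pfkfb2 and by 0.42 for Ldhb. Of the 15 enzymes, 4 were higher and 4 lower in set B by more than 0.2. The sets were made from the same values, so these are descriptions with no test. Pfkfb3 differed by 0.36 between the sets, set B higher, which is less than its difference between the genotypes in either set.

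**Figure D4:**
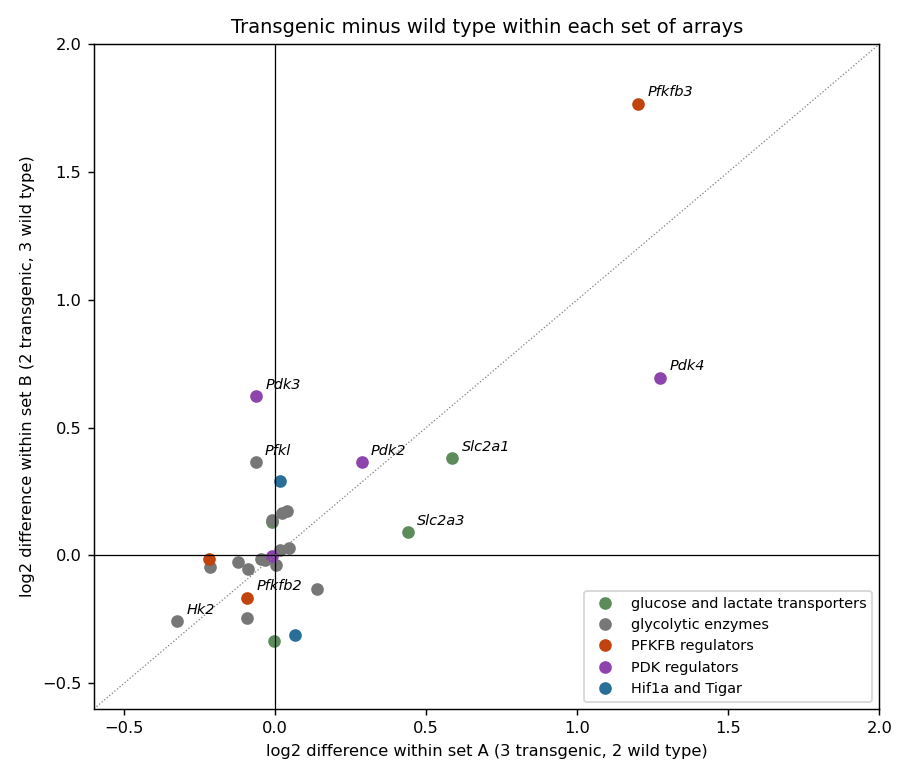
Difference of each measured gene, transgenic minus wild type on the log2 scale, within set A (x axis, 3 transgenic and 2 wild-type arrays) and within set B (y axis, 2 transgenic and 3 wild-type arrays), with colours for the gene groups and a dotted line where both are equal. Pfkfb3 lies at 1.20 for set A and 1.77 for set B, and Pdk4 at 1.27 for set A and 0.69 for set B, while the enzymes lie between -0.32 (Hk2, set A) and 0.36 (Pfkl, set B).

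Around these genes, 77 of 81 further genes of linked pathways had a one-gene probe set, and 0 passed limma's adjusted threshold. Of the 77, 13 had an unadjusted p under 0.05 (16.9%, against 6.59% of all probe sets), 10 higher and 3 lower. In 6 of them (7.79%, against 1.47%) the groups did not overlap, 5 higher and 1 lower in transgenic cells. Among 9 genes of the hypoxia-inducible factor pathway 7 differences were positive, with a median of 0.22. Unadjusted p (limma) was under 0.05 for 4 of the 9 (44.4%, against 6.59% of all probe sets). Egln3 and Egln1 encode prolyl hydroxylases that mark hypoxia-inducible factors for degradation, and Egln3 is itself a known target of these factors. Egln3 had 7.31, 7.30, 6.68, 6.92 and 7.13 on the transgenic arrays, against 6.37, 6.46, 6.04, 5.99 and 6.43 on the wild-type arrays. All transgenic arrays lay above all wild-type arrays, and the difference of 0.81 with a standard error of 0.14 missed the threshold (adjusted p = 0.0766, limma), as it did with the array set as a block (adjusted p = 0.0502).

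Egln1 had 7.33, 7.52, 7.65, 7.32 and 6.95 on the transgenic arrays, against 6.78, 6.90, 6.84, 6.54 and 5.94 on the wild-type arrays. The groups did not overlap, and the difference was 0.75 with a standard error of 0.19 (adjusted p = 0.242, limma). Hif3a, a family member whose short forms inhibit the others, lay between 5.06 and 5.62 in transgenic cells and between 4.88 and 5.03 in wild-type cells, a difference of 0.42 (adjusted p = 0.252, limma). The 14 further target genes of the factors did not share a direction, with 8 positive and a median of 0.03. Vegfa, an angiogenic growth factor, differed by 0.43 (adjusted p = 0.470), Bnip3, a mitophagy receptor, by 0.42 (adjusted p = 0.560), and Higd1a, a mitochondrial protein, by -0.76 (adjusted p = 0.490), all by limma.

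Of 10 genes of glucose uptake and sensing, 3 had an unadjusted p under 0.05 (30%, against 6.59% of all probe sets). After adjustment 0 passed (limma). Txnip and Arrdc4 encode arrestin-domain proteins that lower glucose uptake and that are induced by glucose through a Mondo-type factor, one of which is encoded by Mlxip. Txnip had 10.98, 10.59, 11.14, 11.34 and 11.42 on the transgenic arrays, against 10.58, 10.39, 10.34, 10.27 and 10.55 on the wild-type arrays. The groups were apart by a narrow margin at transgenic array 2, and the difference was 0.67 with a standard error of 0.15 (adjusted p = 0.157, limma). Without that array it was 0.79 and passed (adjusted p = 0.0235, limma). Arrdc4 had 6.85, 6.60, 6.99, 7.32 and 8.16 on the transgenic arrays, against 6.34, 6.02, 5.49, 5.86 and 6.50 on the wild-type arrays. The groups did not overlap, and the difference of 1.14 (standard error 0.28, adjusted p = 0.225, limma) came to 0.64 on set A and 1.79 on set B. Mlxip differed by 0.31 (adjusted p = 0.490, limma).

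At the entry of pyruvate into the mitochondria, 10 of 11 genes of the pyruvate dehydrogenase complex and the pyruvate carrier were measured, with a median of 0.02. Pdp1, the phosphatase that reverses the action of the PDK kinases, had 7.38, 7.32, 7.91, 7.87 and 7.14 on the transgenic arrays, against 6.84, 7.15, 7.15, 6.87 and 6.88 on the wild-type arrays. Only transgenic array 5 lay within the wild-type range, and the difference of 0.55 with a standard error of 0.16 did not pass (adjusted p = 0.372, limma). Dld, a subunit of the complex, differed by 0.18 (adjusted p = 0.811) and Mpc1, a subunit of the carrier, by -0.26 (adjusted p = 0.931). Of 19 measured further enzymes of glycolysis and gluconeogenesis, Pck2, the mitochondrial form of phosphoenolpyruvate carboxykinase, had non-overlapping groups, at 6.17 to 6.48 on the transgenic and 6.57 to 6.98 on the wild-type arrays (difference -0.29, adjusted p = 0.518, limma). The 8 measured enzymes of the pentose phosphate pathway, the branch that makes NADPH and ribose, had a median of 0.03, and 0 had an unadjusted p under 0.05.

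**Figure D5:**
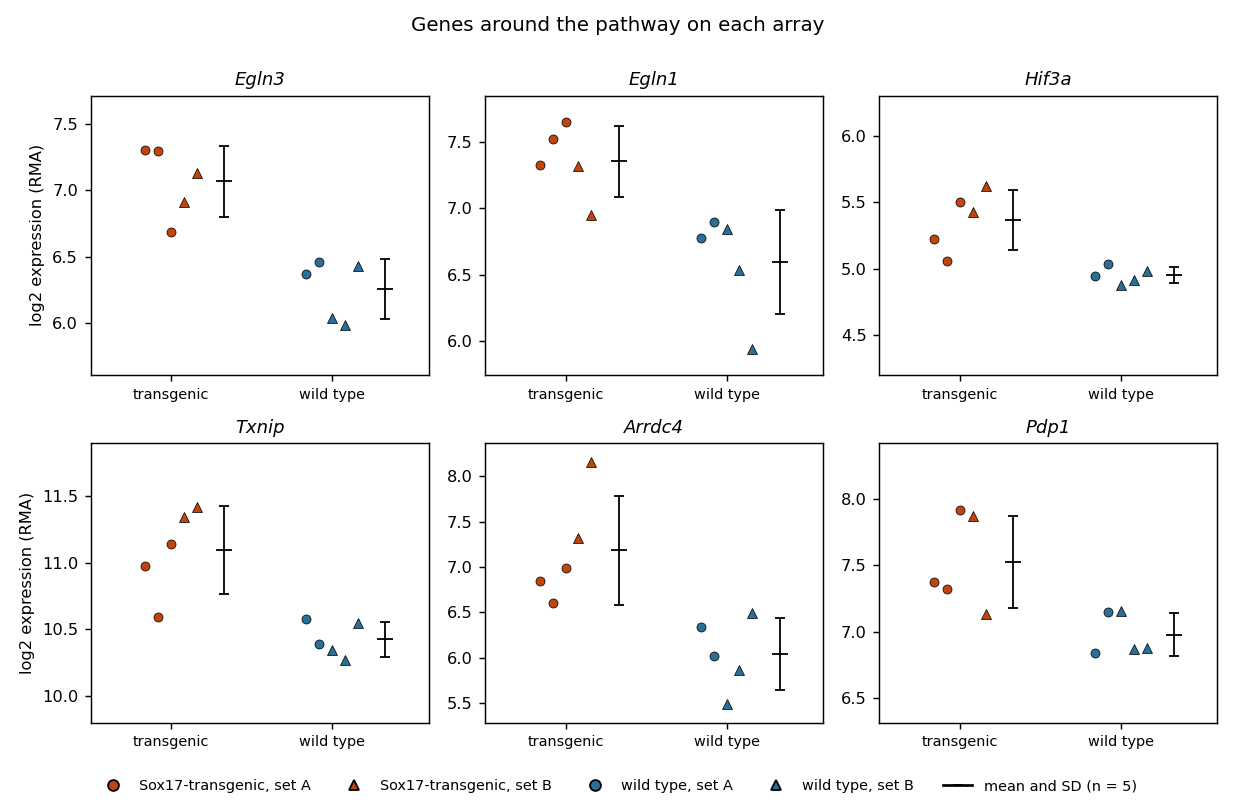
Log2 expression (y axes) of Egln3, Egln1, Hif3a, Txnip, Arrdc4 and Pdp1 on each array, Sox17-transgenic arrays left and wild-type arrays right, circles for set A and triangles for set B, with the mean and SD (n = 5 each). The transgenic points lie above the wild-type points in every panel except that of Pdp1, where transgenic array 5, at 7.14, lies within the wild-type range.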

How the data were processed

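The deposited values are log2 expression of probe sets on 10 Affymetrix Mouse Gene 1.0 ST arrays. The submitters' processing notes name RMA with the R packages affy and limma, without versions. RMA corrects background, makes the array distributions alike and compresses differences between low values. Arrays have no read depth, so precision is limited by their number.

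Groups came from the sample titles. The platform annotation names 1 gene for 21789 of the 35556 probe sets, several for 1621 and none here for 12146. Of the 21789 Entrez identifiers, 21698 were found in a RefSeq table and 0 symbols differed. The deposited log2 values were tested two-sided by the lmFit and eBayes functions of limma 3.58.1 (R 4.3.3), as transgenic minus wild type with no covariate, with Benjamini-Hochberg adjustment over the 23410 probe sets with a gene symbol and a threshold of 0.05. The fit was tested on simulated data. Promoter windows are RefSeq's. Proteins were not used here.

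Genes and lists were chosen with earlier results of these data known, so no list was tested. By rule, all 32 genes are named; those with an unadjusted p under 0.05, the PFKFB and PDK genes and Hif1a have every value given, and of other lists at most 3 genes with the smallest p are named. Alternatives were other normalizations, filters, thresholds, array weights, blocks, array sets and leaving out each array.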

Additional observations from a re-analysis of the deposited data

Results flagged for a closer look

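Within groups of 5 arrays, single values that stood far from the other 4 were looked for by Dixon's test (critical value 0.71) in 98 groups of 49 genes, and 5 were found. Chance gives about 5% of groups. Slc2a3 was at 7.53 (log2) on transgenic array 5, against 8.04 to 8.13 on the other transgenic arrays. Pck2 was at 6.17 on transgenic array 5, against 6.42 to 6.48 on the others of its group. Rpia, an isomerase of the pentose phosphate pathway, was at 6.86 on transgenic array 1, against 5.69 to 5.91 on the others. Pdk4 was at 5.42 on wild-type array 5, against 4.39 to 4.64 on the other wild-type arrays. Pck2 was at 6.98 on wild-type array 5, against 6.57 to 6.66 on the others of its group. The granulocyte and monocyte marker list was also highest on transgenic array 5, with a mean of 6.87 over 11 genes, and its part in these values was not tested.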

How the results depend on the processing

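Pfkfb3 stayed higher in transgenic cells under every alternative run, and its call did not hold under all of them. It held after quantile normalization (adjusted p = 0.0431), with only probe sets above the median (0.0297), with an intensity trend and robust prior (0.0302) and with the set of arrays as a block (1.48, 0.0145). It was lost, all by limma, with the arrays centred on their median (1.42, adjusted p = 0.0527), with all probe sets of the table (1.41, 0.128), with array weights (1.37, 0.0621), with a floor at the 20th percentile (1.41, 0.0646), on set A alone (1.20, 0.348) and on set B alone (1.77, 0.0759). Leaving out 1 array gave 1.26 to 1.57. An exact two-sided permutation test of Pfkfb3 gave p = 0.00794, the smallest that 252 arrangements can give, a value that the full separation of the groups already fixes. Pfkfb3 has 1 one-gene probe set, so a mean over probe sets gave no further value, and genes dimmer than the median probe set have none under that filter. Under each of these losing settings, and at an adjusted p of 0.01, 0 of the 28 genes were called, and leaving out 1 array gave 0 to 1 called. Testing all probe sets adds tests, and each set holds 5 arrays, while for the other losses the cause was not tested.

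Arrays with the same replicate number in the titles had correlated deviations of 0.24, 0.35, -0.14, 0.11 and 0.33 for numbers 1 to 5. Both arrays of numbers 1 and 2 lay in array set A and both of numbers 4 and 5 in set B, while number 3 was split between the sets. The correlations therefore cannot tell a pairing by number from the array sets. The labels name nothing shared by a number, so the numbers were not taken as pairs, although all correlations but that of number 3 lay above 0.1. With the replicate block Pfkfb3 was at 1.41 (adjusted p = 0.0522, limma) and 0 of the 28 genes were called, while Egln3 (0.81, adjusted p = 0.0248) and Egln1 (adjusted p = 0.0466) passed. The alternatives for Egln3, Egln1, Txnip and the other linked pathway genes were chosen after seeing the data, and over all of them the adjusted p of Egln3 ran from 0.0248 to 0.521.

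Over all probe sets, 33 calls became 15 with all probe sets of the table, 91 with the array set as a block, 4 on set A alone, 6 on set B alone and 7 at an adjusted p of 0.01. Leaving out 1 array gave 15 to 71 calls, the highest without transgenic array 2 and the lowest without transgenic array 4.

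Of the 27 measured genes besides Pfkfb3, 13 kept their sign throughout and 0 passed the threshold under any alternative. On set A alone the sign turned for Slc16a3 (-0.012), Hk1 (0.0040), Pfkl (-0.064), Aldoc (-0.011), Eno2 (0.016), Ldhb (0.14), Pdk3 (-0.062) and Tigar (0.065), on set B alone for Eno2 (0.022), in the block fit by set for Eno2 (0.019) and Ldhb (0.0021), and with the mean of its probe sets for Hk1 (0.058). Leaving out 1 array gave ranges across 0 for Slc16a1 (-0.15 to 0.078), Aldoa (-0.067 to 0.022), Tpi1 (-0.18 to 0.032), Pgk1 (-0.12 to 0.062), Pgam1 (-0.061 to 0.032), Eno2 (-0.13 to 0.052), Ldhb (-0.18 to 0.021) and Pdk1 (-0.13 to 0.056).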

Other observations

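The 7 AMPK subunit and kinase genes, which encode the cell's sensor of low energy and can act on PFKFB enzymes, had a median difference of -0.04, with 2 positive and 5 negative. Prkaa2, a catalytic subunit, differed by -0.56 (adjusted p = 0.557, limma), at -0.07 within array set A and -1.07 within set B. The proliferation markers were lower in mean in transgenic cells for 9 of 9 measured genes, with a median of -0.25, beside 12582 of 23410 probe sets lower. As means of the list, the groups overlapped, at 7.14 to 8.13 over transgenic and 7.67 to 8.03 over wild-type arrays. None passed limma's adjusted threshold, while 2 had an unadjusted p under 0.05 (22.2%, against 6.59% of all probe sets). The erythroid markers (9 measured) spanned 5.99 to 6.27 over transgenic and 6.30 to 6.54 over wild-type arrays as means of the list, and the lymphoid markers (11 measured) spanned 4.48 to 4.82 over transgenic and 4.80 to 5.02 over wild-type arrays. The median difference of the lymphoid genes was -0.04. Nkg7 (-1.17) and Vpreb1 (-0.83) were the 2 with an unadjusted p under 0.05 (18.2%, against 6.59% of all probe sets). Neither passed limma's adjusted threshold.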
